A study of Homo sapiens with 12 samples.

Results

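Cultures of 22Rv1 that had been exposed for 6 h to a small compound were set against cultures exposed for 4 h, to see which early responses had faded and which had built up between these times. The series title names the compound as an inhibitor of ONECUT2, a homeodomain transcription factor, and 22Rv1 is an established human prostate carcinoma cell line. The comparison used 6 of the 12 arrays of the series, 3 at 4 h and 3 at 6 h, chosen by their titles, and no vehicle array entered the main test. The 3 vehicle arrays and the 3 arrays at 16 h served as reference levels. All 4 groups were the same line in the same serum-supplemented medium, without a genetic change named in the labels, and neither the dose nor the solvent of the compound is named there. The vehicle arrays carry no time, so a distance from vehicle mixes the compound with time in culture, and these cannot be told apart. The titles of the 16 h arrays are coded differently from the other 9, so 16 h levels are printed beside the results and not compared. The labels do not say that the 3 arrays of a group came from separate cultures, so the p-values reflect only how far these arrays scatter, and that scatter may be technical.

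Messages were measured on Affymetrix U133 Plus 2.0 arrays, on which a probe set is a group of short probes against the 3' part of a transcript. Values are on a log2 scale, where a difference of 1 means a 2-fold difference in signal. Of 54675 probe sets, 41091 carried 1 gene symbol and named 19775 genes. The 22725 named probe sets whose mean over the 6 arrays reached 2.11, the median over all probe sets, were tested, and they cover 12697 genes by each gene's brightest probe set. Arrays of 1 group correlated at 0.996 to 0.998 over these probe sets and 4 h arrays with 6 h arrays at 0.996 to 0.997, and the number of arrays limits the precision. The prostate epithelial identity of the cells was visible on both sets of arrays: 7 markers, among them FOXA1, KRT18, EPCAM and KLK2, were above background on every array, and their summed signal on the linear scale was 5071 to 5305 at 4 h and 4973 to 5092 at 6 h. The 7 fibroblast markers summed to 53.1 to 62.8 at 4 h and 58.4 to 64.6 at 6 h, the 5 leukocyte markers to 15.3 to 18.7 and 16.8 to 18.3, and the 5 endothelial markers to 17.5 to 19.1 and 18.1 to 25.0. COL1A2, PDGFRB, CD14, TYROBP, CDH5, VWF and KDR stayed at background on all 6 arrays.

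Immediate early genes are transcribed within minutes of a stimulus from factors already present in the cell, without new protein synthesis. Many encode transcription factors of the AP-1, EGR and KLF families, and their messages and proteins are short-lived, so that their levels can rise and return within hours. A second group made in the same wave, such as the dual specificity phosphatases and Sprouty proteins, acts as brakes on the MAP kinases that start it. The CCN proteins, secreted matrix proteins, are transcribed through serum response factor and through YAP with TEAD.

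No probe set passed the planned test at 6 h against 4 h. With limma on the 6 arrays and Benjamini-Hochberg adjustment over 22725 probe sets, 0 were called (0%), and the lowest adjusted p was 0.108. At an unadjusted p below 0.05, there were 1198 genes (9.44% of those tested), 600 lower at 6 h (4.73%) and 598 higher (4.71%). Fits that estimate each gene's error from more information did make calls. With all 12 arrays sharing 1 estimate of the spread, 6 genes passed (0.0473%): ATF3, EGR1, ESRRG, AMOTL2 and DUSP10 fell (0.0394%) and PTGS1 rose (0.00788%). That count was 0 without any of the 3 arrays at 4 h or without replicate 3 at 6 h, 1 without replicate 2 at 6 h and 4 without replicate 1 at 6 h.

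With the 6 arrays alone and a prior on the error that follows the signal level and resists outlying genes (a trended and robust prior), 67 genes passed (0.528%), 51 of them lower at 6 h (0.402%) and 16 higher (0.126%). These calls also moved with single arrays: leaving out each array in turn gave 38, 12 and 11 genes without replicates 1, 2 and 3 at 4 h, and 70, 19 and 63 without replicates 1, 2 and 3 at 6 h. Passing in all 6 of those fits were 9 genes, all lower at 6 h: ATF3, EGR1, MAFF, KLF6, JUND, CCN2, RHOB, INSIG1 and ZNF644. In the paragraphs on single genes, adjusted p-values are limma's, first from the planned fit and then, where stated, from the fit with the trended and robust prior. A gene is said to fall or rise only where 1 of the fits called it, and that fit is named.

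**Figure D1:**
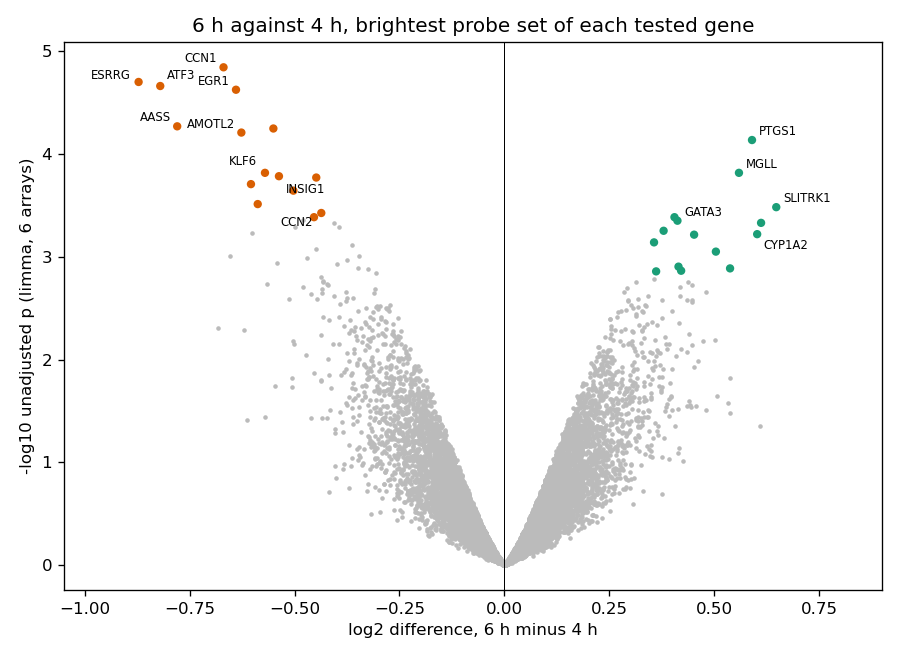
Difference between the 6 h and 4 h means of each tested gene (x axis, log2) against the unadjusted p of limma's 6-array fit (y axis, -log10), for 12697 genes by their brightest probe set. Coloured points are the 15 genes named on each side, and the left side reaches farther, to ESRRG at -0.87, than the right side, to SLITRK1 at 0.65.

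ATF3, a stress-induced transcription factor that binds DNA as a dimer with AP-1 partners, had one of the widest gaps. Its signal was 9.40, 9.29 and 9.33 on the 4 h arrays and 8.38, 8.65 and 8.53 on the 6 h arrays, around a vehicle mean of 8.30. All arrays at 6 h lay well below all arrays at 4 h and a little above vehicle. The difference of -0.82 ± 0.09 (SE) left 56.6% of the 4 h signal (adjusted p = 0.108, 0.0127 with all 12 arrays and 8.36e-05 with the trended prior, in which fits it fell). Its 16 h mean was 10.53.

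EGR1, a zinc finger factor and a classic target of serum response factor, read 8.82, 8.75 and 8.89 at 4 h and 8.20, 8.14 and 8.20 at 6 h. Vehicle was at 7.99, so the 6 h arrays had come most of the way back, and the groups did not overlap. EGR1 fell by 0.64 ± 0.07 in the 12-array fit (adjusted p = 0.0127) and with the trended prior (adjusted p = 0.000134), while the planned fit gave 0.108. EGR3, a sister factor, was at 3.16, 3.20 and 3.17 at 4 h and at 2.56, 2.70 and 2.62 at 6 h, against 2.37 in vehicle. Its difference of -0.55 ± 0.07 did not pass in the planned fit (adjusted p = 0.176) or with the trended prior (0.0584). The 16 h means were 10.47 for EGR1 and 5.43 for EGR3.

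MAFF, a small MAF protein without an activation domain of its own, was at 8.78, 8.66 and 8.82 at 4 h and at 8.01, 8.17 and 8.27 at 6 h. Vehicle stood at 7.74, so MAFF had given back part of its early excess and kept the rest. The difference was -0.60 ± 0.09 (adjusted p = 0.234, 0.00115 with the trended prior, where it fell), and the 16 h mean was 10.24. KLF6, a zinc finger factor of growth arrest and wound responses, followed the same course on its brightest probe set, from 9.35, 9.37 and 9.43 at 4 h to 8.67, 8.86 and 8.90 at 6 h over 8.33 in vehicle. It fell by 0.57 ± 0.08 with the trended prior (adjusted p = 0.000404, against 0.214 in the planned fit). A second KLF6 probe set went from 8.38, 8.42 and 8.48 to 7.70, 7.77 and 7.63, a difference of -0.72 ± 0.07 (adjusted p = 0.108, and 0.045 with all 12 arrays). The dimmest probe sets of ATF3 and KLF6, near background, differed by 0.21 and 0.11 the other way and did not pass. KLF6 averaged 9.04 at 16 h.

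Among the AP-1 subunits, JUND fell with the trended prior and JUN did on 2 probe sets. JUND read 11.43, 11.48 and 11.50 at 4 h and 11.09, 11.19 and 11.15 at 6 h (-0.33 ± 0.06, adjusted p = 0.000404 with the trended prior, 0.315 in the planned fit), over 11.04 in vehicle. JUN's brightest probe set, which can bind related transcripts, went from 8.65, 8.74 and 8.71 to 8.19, 8.37 and 8.42 (adjusted p = 0.024 with the trended prior). Another JUN probe set showed 7.87, 7.86 and 7.84 at 4 h and 7.05, 7.24 and 7.32 at 6 h, a difference of -0.65 ± 0.08 with 0.00138 by the same fit. The 3 readings of JUN at 6 h were thus spread around its vehicle means of 8.28 and 7.09. FOS was dim at both times, at 3.21, 3.52 and 3.43 against 3.06, 2.97 and 3.08, with adjusted p = 0.377, and had a mean of 6.86 at 16 h. FOSL2, an AP-1 partner of the JUN proteins, was at 4.81, 5.0 and 5.14 at 4 h and 4.64, 4.48 and 4.48 at 6 h (adjusted p = 0.32). JUNB was close to vehicle, at 4.12, at both times, and its arrays overlapped.

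The start regions of EGR1, FAM53C and MAFF are shown because, of the 15 genes named as lower at 6 h, they are the ones with a searched element in the 250 bases before the start. Sequences are from RefSeq on GRCh38.p14, and capitals mark the matches. EGR1 (chr5:138465229-138465478, plus strand) held the CArG box, the element bound by serum response factor, at 2 places, 105 to 96 and 83 to 74 bases before the start. FAM53C (chr5:138338016-138338265, plus strand), on the same chromosome, held it 35 to 26 bases before its start. MAFF (chr22:38201744-38201993, plus strand) held the cyclic AMP response element TGACGTCA, to which ATF and CREB dimers bind, 54 to 47 bases before its start.
EGR1: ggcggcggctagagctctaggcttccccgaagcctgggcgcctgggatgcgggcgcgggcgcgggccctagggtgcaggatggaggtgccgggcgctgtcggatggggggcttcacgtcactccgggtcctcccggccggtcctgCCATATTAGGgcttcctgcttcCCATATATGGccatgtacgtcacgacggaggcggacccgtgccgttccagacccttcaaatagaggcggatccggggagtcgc
FAM53C: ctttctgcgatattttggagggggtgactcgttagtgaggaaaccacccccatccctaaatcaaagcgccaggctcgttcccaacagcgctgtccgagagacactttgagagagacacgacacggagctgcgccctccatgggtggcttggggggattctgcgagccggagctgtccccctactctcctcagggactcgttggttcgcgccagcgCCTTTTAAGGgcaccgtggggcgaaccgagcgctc
MAFF: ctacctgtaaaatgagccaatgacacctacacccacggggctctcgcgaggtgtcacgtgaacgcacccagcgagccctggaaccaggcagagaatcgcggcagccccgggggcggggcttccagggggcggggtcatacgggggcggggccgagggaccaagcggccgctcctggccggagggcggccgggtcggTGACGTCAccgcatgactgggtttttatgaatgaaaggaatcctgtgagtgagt

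Both strands were searched, for exact matches only. The CArG box was in 2 of the 13 promoters listed for these 15 genes, TGACGTCA in 1 and the AP-1 element TGANTCA in 0. Over 27305 promoters of the same length, the shares were 1.14%, 1.77% and 6.6%. Of 13 promoters listed for the 15 genes named as higher at 6 h, 0 held any of the 3 elements. CCN1, EGR3, MGLL and H2BC12L had no entry. A match is a description of the letters and not evidence of binding.

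**Figure D2:**
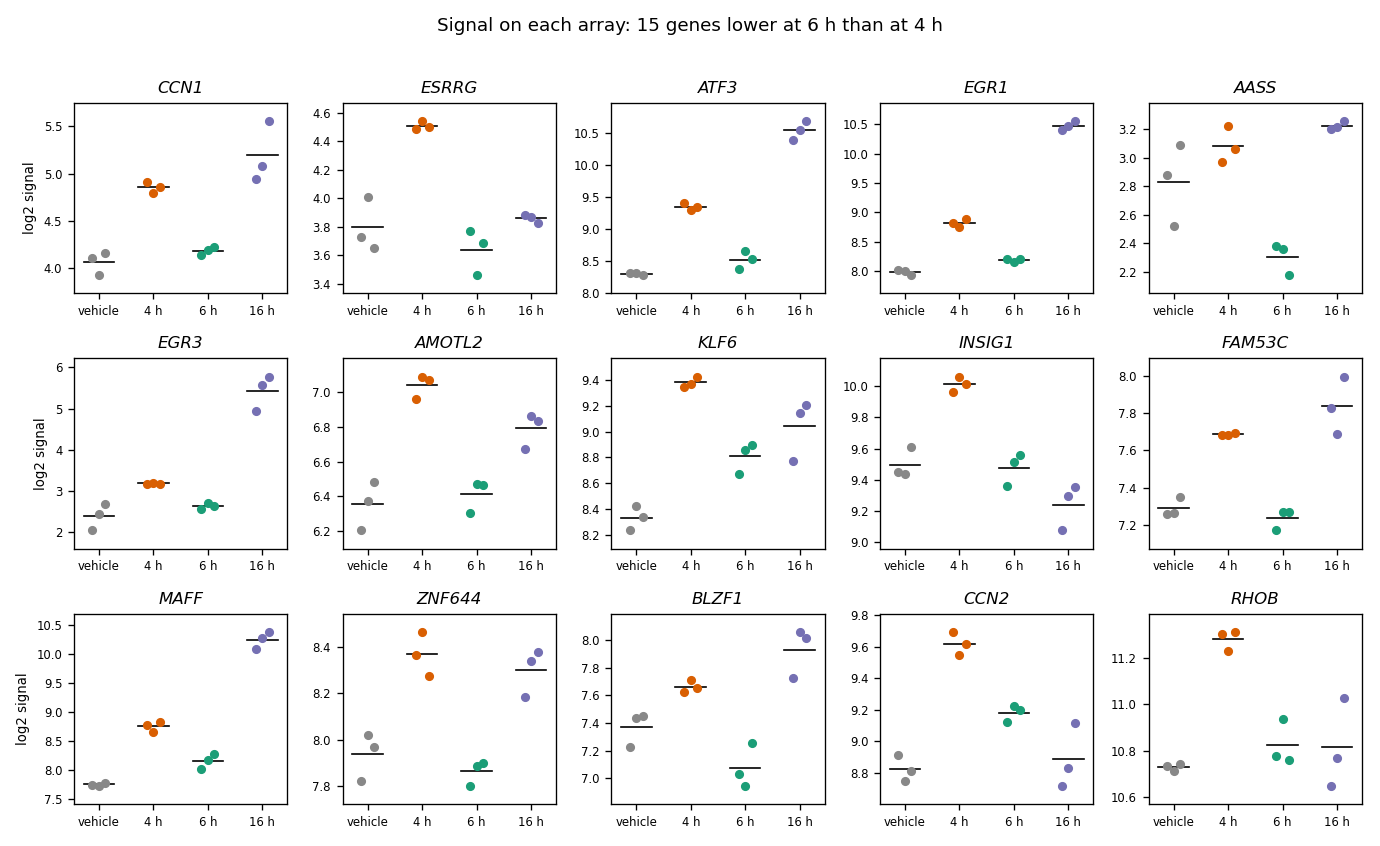
Log2 signal on each of the 12 arrays for the 15 genes named as lower at 6 h than at 4 h; points are arrays, bars are group means, and each panel has its own y axis. The 6 h points lie below the 4 h points in every panel, and 13 of the 15 have their 6 h mean closer to vehicle than their 4 h mean, AASS and BLZF1 being the others. The genes were picked by their 4 h and 6 h arrays, so that count is a description.

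Across the list of immediate early transcription factors, 26 of 32 were tested. At 6 h, 14 lay below 4 h without overlap (53.8%, beside 9.21% of all tested genes) and 2 above (7.69%, beside 10.1%). The median difference of the list was -0.17, beside 0.01 over all genes, and ranged from -0.24 to -0.15 when single arrays were left out or the arrays rescaled. ATF3, EGR1, MAFF, KLF6, JUN, JUND and CEBPB passed with the trended prior, and 0 members passed in the planned fit. CEBPB, a leucine zipper factor of inflammation and metabolism, was at 9.56, 9.61 and 9.62 at 4 h and back at its vehicle mean of 9.30 at 6 h, with 9.28, 9.30 and 9.38 (-0.28 ± 0.06, adjusted p = 0.0153 with the trended prior). KLF11, a TGF-beta-inducible repressor, had a wide difference of -0.62 ± 0.16 with more spread, 6.32, 6.58 and 6.83 against 5.87, 5.78 and 6.22 (adjusted p = 0.071 with the trended prior). The exceptions in direction were MYC and CEBPD, both lower at 4 h than vehicle and higher at 6 h than at 4 h. MYC, the growth-promoting factor, was at 9.73, 9.77 and 9.62 at 4 h and 9.94, 9.91 and 9.80 at 6 h, with 10.11 in vehicle; its difference of 0.18 ± 0.08 did not pass (adjusted p = 0.466).

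The brakes on MAP kinase signalling gave a smaller difference in the same direction. Of 34 tested, 11 lay below 4 h without overlap (32.4%) and 3 above (8.82%), with a median of -0.10. Over all tested genes, the shares were 9.21% and 10.1%. DUSP10, a phosphatase that prefers the stress kinases JNK and p38, was at 8.18, 8.29 and 8.33 at 4 h and 7.74, 7.90 and 7.72 at 6 h over a vehicle mean of 7.72. It fell by 0.48 ± 0.08 in the 12-array fit (adjusted p = 0.0492) and with the trended prior (0.00771), against 0.237 in the planned fit. DUSP1, a nuclear phosphatase of the same family, went from 8.24, 8.39 and 8.36 to 8.14, 8.07 and 7.95, at its vehicle mean of 7.97, and did not pass (adjusted p = 0.391). DUSP8 held its level: 5.32, 5.10 and 5.22 at 4 h and 5.0, 5.24 and 5.0 at 6 h, all above a vehicle mean of 4.54, with a difference of -0.13 ± 0.10. ERRFI1, a feedback inhibitor of the EGF receptor, also remained above its vehicle mean of 8.76 at 6 h, with 9.09, 9.37 and 9.28 after 9.43, 9.37 and 9.48.

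CCN1 had the lowest unadjusted p among the brightest probe sets of all genes. Its arrays read 4.91, 4.80 and 4.85 at 4 h and 4.14, 4.19 and 4.22 at 6 h, with 4.07 in vehicle, so that nearly the whole early excess had gone. The difference was -0.67 ± 0.07 (adjusted p = 0.108, and 0.0158 with the trended prior, where it fell). Its second probe set went the same way by less, from 4.27, 4.33 and 4.44 to 3.95, 4.04 and 4.05. CCN2, also called connective tissue growth factor, was at 9.69, 9.55 and 9.62 and then at 9.12, 9.23 and 9.20, and 8.83 in vehicle. It fell by 0.44 ± 0.07 with the trended prior (adjusted p = 0.00106, against 0.237), and unlike CCN1 its 6 h arrays stayed above every vehicle array. AMOTL2, an angiomotin that binds and restrains YAP, went from 6.96, 7.09 and 7.07 to 6.31, 6.47 and 6.46, around its vehicle mean of 6.36. It fell in the 12-array fit (-0.63 ± 0.08, adjusted p = 0.045).

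These 3 were the only members of the YAP and TEAD list, of 14 tested, to lie below 4 h without overlap (21.4%), and the median of the list was -0.06. F3, encoding tissue factor, and the ligand TGFB2 lay above 4 h without overlap (14.3%), by 0.12 and 0.33, and did not pass. Of all tested genes, 9.21% lay below and 10.1% above. RHOB, a small GTPase with a short-lived message, read 11.30, 11.23 and 11.31 at 4 h and 10.78, 10.94 and 10.76 at 6 h over 10.73 in vehicle (-0.45 ± 0.07, adjusted p = 0.00023 with the trended prior, 0.237 in the planned fit). Its 16 h mean was 10.81.

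Some sterol genes were also lower at 6 h. INSIG1, the endoplasmic reticulum anchor that holds back the sterol sensor SCAP, was at 9.97, 10.06 and 10.02 at 4 h and at 9.36, 9.51 and 9.56 at 6 h, on its vehicle mean of 9.50. It fell by 0.54 ± 0.08 with the trended prior (adjusted p = 0.00023, against 0.214). A second probe set read 8.54, 8.47 and 8.46 and then 7.97, 7.85 and 7.65, which is below every vehicle array (-0.67 ± 0.09, adjusted p = 0.0366 with all 12 arrays). The 16 h means were 9.24 and 7.53. MSMO1, a sterol demethylase, fell with the trended prior from 10.80, 10.82 and 10.87 to 10.58, 10.60 and 10.64 (-0.23 ± 0.06, adjusted p = 0.0108). Of 19 cholesterol genes tested, 6 lay below 4 h without overlap (31.6%): these were INSIG1, STARD4, MSMO1, HMGCS1, IDI1 and SQLE. LSS, lanosterol synthase, lay above by 0.06, and the median of the list was -0.09. In the fatty acid synthesis list, SREBF1, ELOVL6, LPIN1, SCD and ACLY, 5 of 13, lay below (38.5%) by 0.07 to 0.19, and 0 passed. Both lists stand beside 9.21% of all tested genes below 4 h without overlap and 10.1% above.

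ESRRG, an orphan nuclear receptor related to the oestrogen receptors, had the widest difference of any gene on its brightest probe set. Its signal was 4.49, 4.54 and 4.50 at 4 h and 3.77, 3.46 and 3.69 at 6 h, with 3.80 in vehicle and 3.86 at 16 h. The 4 h arrays lay above every vehicle and 6 h array. ESRRG fell by 0.87 ± 0.09 with all 12 arrays (adjusted p = 0.0131) and with the trended prior (0.006), and the planned fit gave 0.108. FAM53C went from 7.68, 7.68 and 7.69 to 7.17, 7.27 and 7.27, at its vehicle mean of 7.29 (adjusted p = 0.0108 with the trended prior), and the zinc finger gene ZNF644 from 8.36, 8.46 and 8.28 to 7.80, 7.89 and 7.90 around 7.94 (0.00353). CLK1, a kinase of splicing factors that was not among the 15, fell with the same fit from 7.84, 8.01 and 7.96 to 7.31, 7.48 and 7.53 over 7.43 in vehicle. DNAJB4, a co-chaperone, did likewise from 8.14, 8.08 and 8.12 to 7.52, 7.70 and 7.78 over 7.60.

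For AASS and BLZF1, the 6 h mean was below the vehicle mean; the 6 h arrays of AASS lay below every vehicle array, and 1 of those of BLZF1 overlapped vehicle. AASS, the first enzyme of lysine breakdown, is a dim signal, at 2.97, 3.22 and 3.06 at 4 h and 2.38, 2.36 and 2.18 at 6 h; vehicle averaged 2.83 and 16 h 3.23. It fell by 0.78 ± 0.09 with the trended prior (adjusted p = 0.0118, against 0.176). BLZF1, a Golgi matrix protein, went from 7.62, 7.71 and 7.65 to 7.03, 6.95 and 7.25, with vehicle at 7.37 and 16 h at 7.93 (-0.59 ± 0.09, adjusted p = 0.00771 with the trended prior). A separate BLZF1 probe set read 5.03, 5.06 and 5.30 and then 4.56, 4.66 and 4.71, over 4.84 in vehicle.

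HSPA5, the main chaperone of the endoplasmic reticulum, was a fall that built up. It stood at 11.60 in vehicle, read 11.37, 11.42 and 11.42 at 4 h and 11.22, 11.10 and 11.17 at 6 h, with 12.11 at 16 h. The 6 h arrays lay below the 4 h arrays, and these below every vehicle array (-0.24 ± 0.07, adjusted p = 0.00796 with the trended prior, 0.383 in the planned fit). HERPUD1, a component of protein degradation at that organelle, fell with the trended prior from 9.81, 9.90 and 9.93 to 9.52, 9.68 and 9.54, under a vehicle mean of 9.85. XBP1 and DNAJB9, both of the unfolded protein response, lay lower by 0.22 and 0.14 and did not pass. Of 29 endoplasmic reticulum chaperone genes, 5 were below 4 h without overlap (17.2%) and 3 above (10.3%), and the median was -0.04. The shares over all tested genes were 9.21% and 10.1%, so the share above was that of all genes.

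GDF15, a secreted stress cytokine and p53 target, had faded in part, from 9.58, 9.45 and 9.58 to 9.18, 9.28 and 9.25, still above 8.74 in vehicle. It fell by 0.30 ± 0.07 with the trended prior (adjusted p = 0.0158, against 0.336) and had the level 11.93 at 16 h. Among 26 p53 targets, 5 lay below 4 h without overlap (19.2%), the others being SESN2, PMAIP1, PLK2 and PPM1D, and 1 above (3.85%). In the list of ATF4 and amino acid stress genes, 8 of 33 lay below (24.2%), led by CHAC1 and SESN2 at -0.32 each, 3 above (9.09%), and 0 passed. The hypoxia list was split, with 6 of 28 below (21.4%), led by VEGFA at -0.34, and 8 above (28.6%), led by ANGPTL4 at 0.61. For each of these lists, the shares over all tested genes were 9.21% below and 10.1% above.

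Some early responses were held or had no detectable difference between the times. HMOX1, which breaks down heme and is a target of NRF2, was at 4.09 in vehicle, 5.16, 4.97 and 5.62 at 4 h, and 4.88, 5.22 and 4.96 at 6 h. The arrays overlapped, and the difference of -0.23 ± 0.17 had a 95% interval from -0.64 to 0.18 (adjusted p = 0.666). Its 16 h mean was 10.79. MAT2A, which makes S-adenosylmethionine, was above vehicle by a like amount at both times, with 10.26, 10.18 and 10.22 at 4 h and 10.28, 10.29 and 10.25 at 6 h over 9.73. The difference of 0.05 ± 0.06 had an interval from -0.09 to 0.20, and the mean over its probe sets gave -0.03, so it has no settled direction. In the NRF2 list, 0 of 27 lay below 4 h without overlap (0%) and NQO1 and PRDX1 lay above (7.41%), by 0.16 and 0.12, with a median of 0.04. All tested genes gave 9.21% below and 10.1% above.

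QRSL1, a mitochondrial tRNA amidotransferase subunit, lay below vehicle at both times on its brightest probe set only. It stood at 6.96 in vehicle, 6.58, 6.69 and 6.68 at 4 h and 6.32, 6.48 and 6.35 at 6 h, and did not pass (-0.27 ± 0.07, adjusted p = 0.384). Its other tested probe sets overlapped vehicle at both times. The next brightest averaged 6.26 in vehicle, 6.30 at 4 h and 6.20 at 6 h. BCL7A, a BAF chromatin remodelling subunit, had probe sets that differ. The brightest was 4.50, 4.44 and 4.57 at 4 h and 4.64, 4.64 and 4.80 at 6 h over 4.57 in vehicle (0.19 ± 0.08, adjusted p = 0.459). The second was 5.65 in vehicle, 4.66, 4.17 and 4.53 at 4 h and 4.72, 4.48 and 4.66 at 6 h, below vehicle at both times (0.17 ± 0.13 between the times). ONECUT2 itself, the message of the protein the compound is named for, read 6.74, 6.81 and 6.87 at 4 h and 6.56, 6.78 and 6.80 at 6 h over 6.71 in vehicle (-0.10 ± 0.09, adjusted p = 0.717). Its dimmer probe sets differed by 0.25, -0.02 and -0.18 and did not pass. The dimmest, near background, averaged 2.53 in vehicle and 2.12 at 6 h, with all 6 h arrays below all vehicle arrays.

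Of the 15 genes named as higher at 6 h, 11 had a mean closer to vehicle at 6 h than at 4 h. In 9 of these all 4 h arrays lay below all vehicle arrays, and in DNAL1 and TMCC1 they overlapped. The 6 h means of DNAL1, TMCC1 and H2BC12L had passed vehicle, to 0.16 to 0.24 above it. Those of SLITRK1, GATA3, ZNF486, MIRLET7BHG and GPR107 lay 0.02 to 0.03 above it. The other 4, PTGS1, MGLL, LINC01093 and RAB6B, lay farther from vehicle, with 4 h means below it and 6 h means above it. The 15 were picked by their 4 h and 6 h arrays, so low 4 h arrays enter both the choice and the distance from vehicle. These counts are a description, without the share over all tested genes beside them.

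SLITRK1, a neuronal membrane protein, was at 5.09 in vehicle, at 4.67, 4.42 and 4.31 at 4 h, and at 5.05, 5.11 and 5.18 at 6 h. Its fall at 4 h was gone at 6 h, and 16 h was at 4.48. It rose between the times by 0.65 ± 0.10 with the trended prior (adjusted p = 0.0339, against 0.237). GATA3, a zinc finger factor of luminal epithelia, rose in the same fit from 7.39, 7.45 and 7.46 to 7.92, 7.84 and 7.78, on its vehicle mean of 7.82 (0.41 ± 0.07, adjusted p = 0.0158). Its dimmer probe sets differed by 0.11 and -0.01 and did not pass. ANGPTL4, a secreted inhibitor of lipoprotein lipase, was at 3.52, 3.70 and 3.72 and then 4.16, 4.17 and 4.45, beside 4.34 in vehicle (0.61 ± 0.10, adjusted p = 0.237). The probe set named CYP1A2, a cytochrome P450 induced through the aryl hydrocarbon receptor, can bind related transcripts. It stood at 7.65 in vehicle, 6.73, 6.88 and 7.04 at 4 h, 7.60, 7.34 and 7.52 at 6 h and 8.60 at 16 h, and rose by 0.60 ± 0.11 with the trended prior (adjusted p = 0.0118).

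IGFBP3, a carrier of insulin-like growth factors, had means below vehicle at both times on a second probe set, with 5.98 in vehicle, 4.94, 5.23 and 5.09 at 4 h and 5.56, 5.51 and 5.68 at 6 h (0.50 ± 0.09, adjusted p = 0.296). RGL3, a guanine nucleotide exchange factor, went from 3.52, 3.70 and 3.78 to 4.13, 4.08 and 4.06, at its vehicle mean of 4.13. The host gene of let-7b, MIRLET7BHG, was at 3.40, 3.30 and 3.38 and then at 3.72, 3.72 and 3.78, with vehicle at 3.72. Neither passed (adjusted p = 0.315 and 0.245). Lineage factors of the prostate gave 5 members above 4 h without overlap of 17 tested (29.4%), GATA3, SPDEF, GATA2, HOXB13 and SOX9, each with a 4 h mean below its vehicle mean. The 3 below (17.6%) were ELF3, ETV1 and EPCAM, and ELF3, an epithelial ETS factor, fell with the trended prior from 8.67, 8.76 and 8.86 to 8.42, 8.27 and 8.18 over 8.01 in vehicle. Over all tested genes, 10.1% lay above 4 h without overlap and 9.21% below.

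PTGS1, the constitutive cyclooxygenase, and MGLL, which splits monoacylglycerols, rose away from vehicle. PTGS1 read 2.26, 2.18 and 2.16 at 4 h, 2.69, 2.80 and 2.87 at 6 h, 2.26 in vehicle and 2.27 at 16 h, and the 6 h arrays lay above every vehicle and 4 h array. It rose by 0.59 ± 0.07 with all 12 arrays (adjusted p = 0.027) and with the trended prior (0.0373), against 0.183. The signal lies near the unspiked bacterial controls, whose highest value per array was 1.87 to 2.28, on a probe set that can bind related transcripts. MGLL was at 4.86, 4.92 and 4.93 at 4 h, 5.42, 5.60 and 5.38 at 6 h, 4.96 in vehicle and 5.40 at 16 h. It rose by 0.56 ± 0.08 with the trended prior (adjusted p = 0.0373), its 6 h arrays lay above every vehicle array, and a second probe set differed by 0.49 ± 0.14. ID1, a BMP-induced inhibitor of helix-loop-helix factors, was at 10.67, 10.69 and 10.69 and then 10.83, 10.91 and 10.99, over 10.78 in vehicle and with 11.29 at 16 h (0.23 ± 0.07, adjusted p = 0.0199 with the trended prior).

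The TGF-beta and BMP list had 6 of 16 members above 4 h without overlap (37.5%), HEY1, BAMBI, HES1, ID1, ID3 and PMEPA1, and 2 below (12.5%), LTBP2 and SKI. Its median was 0.10, beside 0.01 over all genes, and ranged from 0.07 to 0.13 when single arrays were left out or the arrays rescaled. The shares over all tested genes were 10.1% above and 9.21% below. LINC01093, a noncoding RNA, was at 2.09, 1.85 and 1.88 at 4 h and 2.50, 2.51 and 2.32 at 6 h, with vehicle and 16 h at background. ZNF486, DNAL1, TMCC1, GPR107, H2BC12L and RAB6B completed the 15 with differences of 0.36 to 0.54, and 0 of them passed in any fit described here. A dimmer GPR107 probe set went the other way without overlap, by -0.47, and did not pass.

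**Figure D3:**
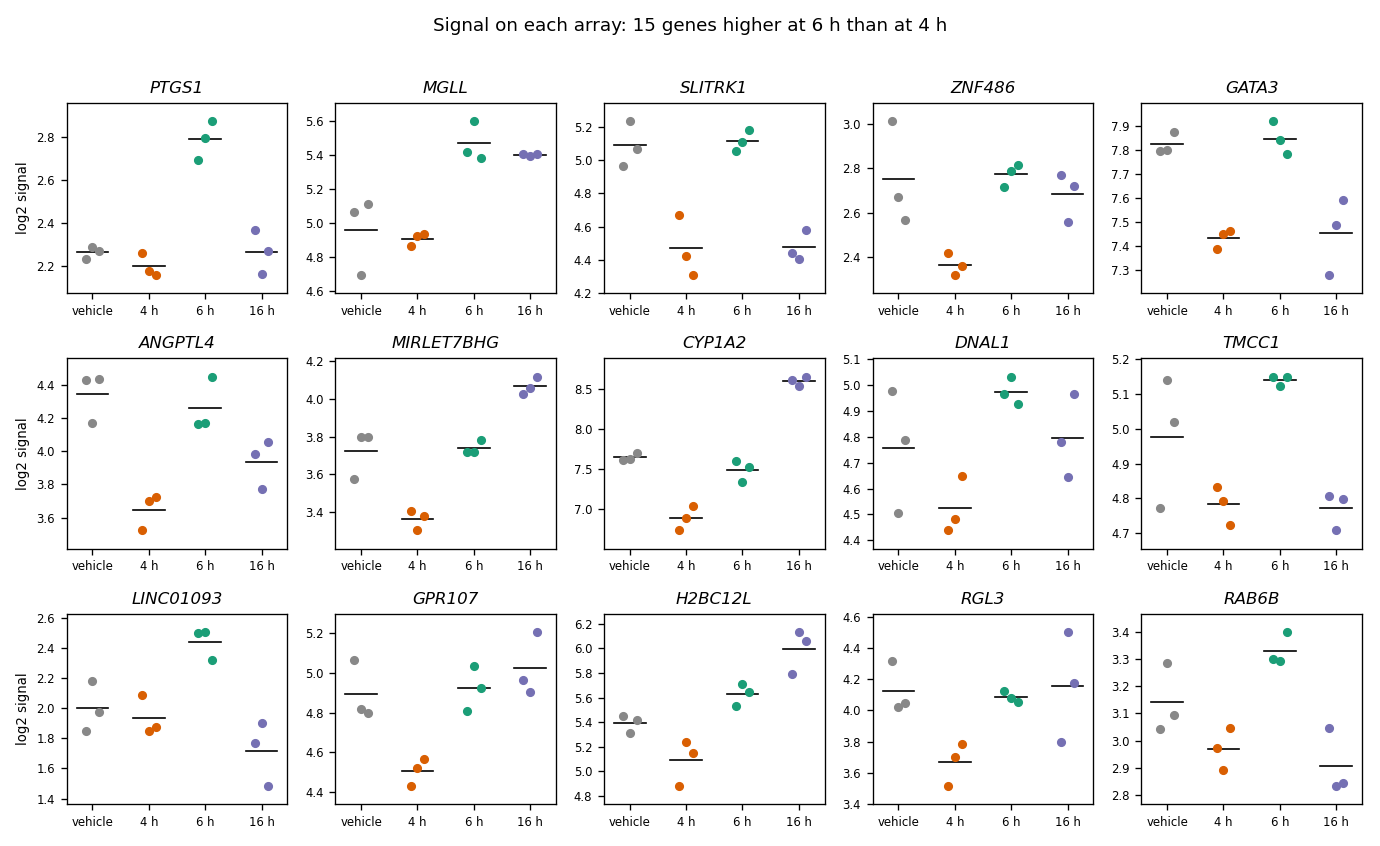
Log2 signal on each of the 12 arrays for the 15 genes named as higher at 6 h than at 4 h; points are arrays, bars are group means, and each panel has its own y axis. In 9 panels all 4 h points lie below all vehicle points, and in 5, those of PTGS1, MGLL, LINC01093, H2BC12L and RAB6B, all 6 h points lie above all vehicle points. The genes were picked by their 4 h and 6 h arrays, so these counts are a description.

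Counted over calls, a 6 h mean closer to vehicle than the 4 h mean was the more common course. Of the 67 genes called with the trended prior, 50 had a 6 h mean closer to vehicle than the 4 h mean, 42 of them down from above vehicle and 8 up from below it. The other 17 were farther, 8 above vehicle and 9 below. Only the distance counts here, and some means crossed vehicle. PPP1CB, ETNK1, FMR1, CCDC117, TOB2 and TSC22D2, for example, went from above vehicle to below it and are among the closer. BLZF1, AASS, LRRFIP1, CD2AP, HERPUD1, CD46, RBM3 and CAPZA2 crossed in the same way and are among the farther. The 8 that were farther above vehicle all had a 4 h mean below it, TUBB6 only just. These are thus not early responses that built up. Of the 17, only HSPA5 had both means on the same side of vehicle. Of the 6 called with all 12 arrays, 5 were closer and PTGS1 was farther. The 4 h arrays enter both the distance from vehicle and the difference between the times, so a 4 h mean that is off by chance gives a return. These counts are a description, without the share over all tested genes beside them. Both sides include bright genes with small differences, for example SFN, a 14-3-3 protein, which rose by 0.15 from 11.55 to 11.70, and the cold-inducible RBM3, which fell by 0.18 from 10.61 to 10.43, both with the trended prior.

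**Figure D4:**
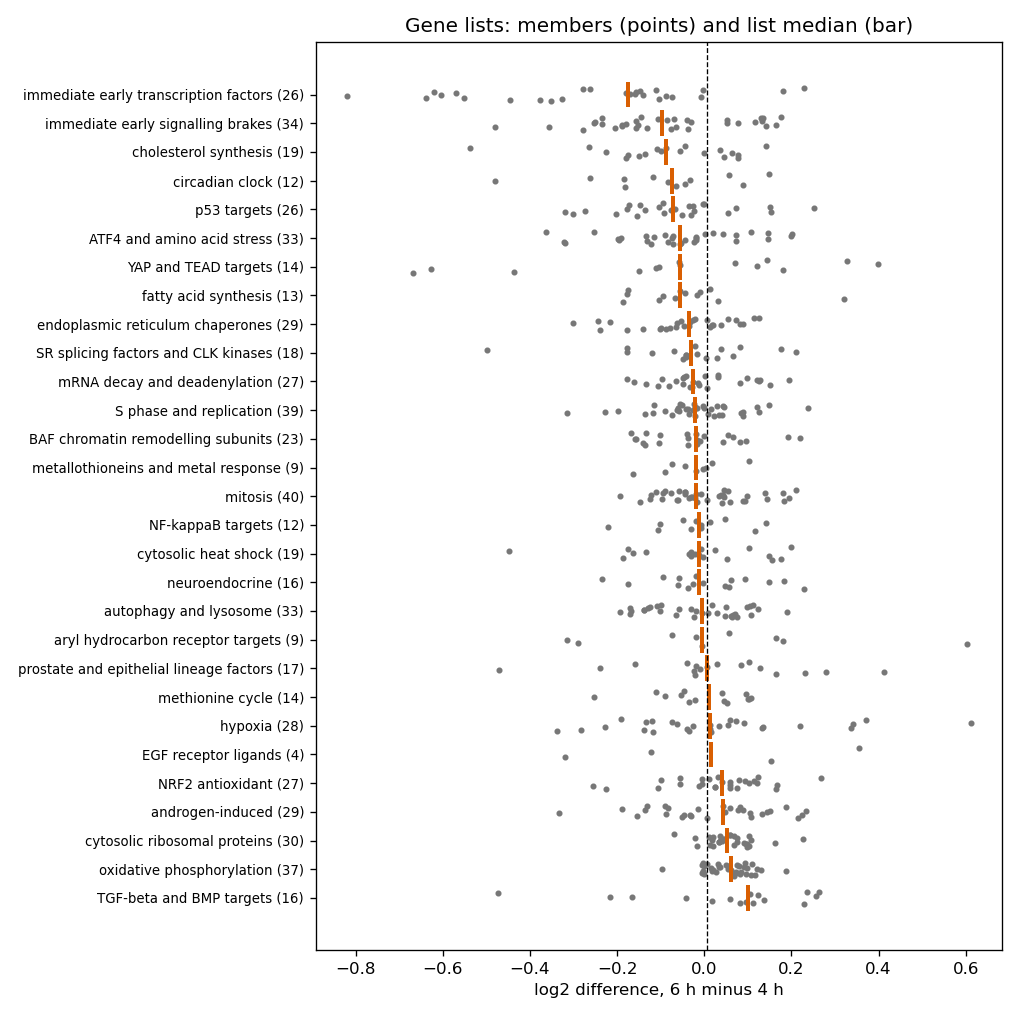
Difference between the 6 h and 4 h means (x axis, log2) of every tested member (points) of each gene list (rows, number tested in brackets); orange bars are list medians and the dashed line is the median of all tested genes, 0.01. The immediate early transcription factors are spread farthest to the left, and the ribosomal protein and oxidative phosphorylation members are tightly grouped just right of the line.

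Most tested genes of the ribosome and the respiratory chain had a slightly higher mean at 6 h than at 4 h, by an amount that moved with the scaling for the ribosome. Of 30 cytosolic ribosomal proteins tested, 13 lay above 4 h without overlap (43.3%) and 1 below (3.33%), with differences of 0.04 to 0.23 among those above and a list median of 0.05. Of 37 oxidative phosphorylation genes, 14 lay above (37.8%) and 1 below (2.7%), with a median of 0.06. Of all tested genes, 10.1% lay above and 9.21% below. No member of either list passed in any fit. With quantile normalisation the ribosomal median was 0.02, with 10 members lower and 20 higher in place of 3 and 27, beside a median of 0.02 over all genes. When single arrays were left out or the arrays rescaled, the median of the oxidative phosphorylation list ranged from 0.05 to 0.08 and that of all genes from -0.01 to 0.03. NDUFA5, a complex I subunit outside the list and named after its values were seen, fell with the trended prior (-0.19 ± 0.07, adjusted p = 0.0373, against 0.417), while its dimmer probe set differed by 0.21 and did not pass. RPLP2, a stalk protein of the large subunit, had the widest difference, from 5.59, 5.57 and 5.62 to 5.84, 5.78 and 5.84. NDUFA2, a complex I subunit, went from 10.33, 10.24 and 10.30 to 10.37, 10.43 and 10.43.

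The other lists are read beside the 9.21% of all tested genes that lay below 4 h without overlap and the 10.1% above. In the circadian list, 2 of 12 lay below (16.7%), NR1D2 and TEF, and in the heat shock list 5 of 19 (26.3%) below and 2 above (10.5%). Splicing factors and CLK kinases had 4 of 18 below (22.2%) and 2 above (11.1%), and aryl hydrocarbon receptor targets 1 of 9 below (11.1%), TIPARP, and 2 above (22.2%), CYP1A2 and NQO1. Androgen-induced genes had 3 of 29 below (10.3%), with PTGER4 at -0.33, and 4 above (13.8%), with SLC45A3 at 0.23. In the neuroendocrine list REST, the repressor of neuronal genes, was the 1 of 16 below (6.25%). The NF-kappaB list had 0 of 12 on either side. Replication genes had 5 of 39 below (12.8%) and 3 above (7.69%), mitotic genes 3 of 40 below (7.5%) and 7 above (17.5%), autophagy and lysosome genes 3 of 33 below (9.09%) and 0 above. The methionine cycle had 1 of 14 on each side (7.14%), metallothioneins and metal response 1 of 9 below (11.1%), EGF receptor ligands 1 of 4 above (25%), mRNA decay 2 of 27 below (7.41%) and 1 above (3.7%), and BAF subunits 2 of 23 on each side (8.7%).

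A gene's second probe sets leaned lower at 6 h. Of 10028 tested, 873 were lower at an unadjusted p below 0.05 (8.71%) and 338 higher (3.37%), whereas the brightest probe sets were even at 600 and 598. That evenness moved with the scaling and with single arrays. The brightest gave 592 lower and 818 higher with quantile normalisation. They gave 665 and 403 without replicate 1 at 4 h, and 426 and 778 without replicate 1 at 6 h. Second probe sets leaned lower in each of these settings. Without regard to a test, 10.7% of them lay below 4 h without overlap and 5.77% above. The planned fit called 0 of them (0%), and 1211 had an unadjusted p below 0.05 (12.1%). The 12-array fit called 4 (0.0399%), all lower, of KLF6, JUN, INSIG1 and UHMK1 (the last outside the naming rule and named after its values were seen, at -1.01 against -0.08 on its brightest probe set), and the trended prior 23 (0.229%), 21 lower (0.209%) and 2 higher (0.0199%). The JUN probe set of the 12-array fit was not described above. It differed by -0.49 (adjusted p = 0.045 in that fit) and did not pass with the trended prior. The JUN probe set at -0.65 above had 0.108 in the 12-array fit. Beside KLF6, JUN (the probe set at -0.65) and INSIG1, the 10 named as lower were RIOK3, SEC23A, TAF9B, MYH10, NEDD1, UBE2H and CAMSAP2. RIOK3, an atypical kinase, went from 7.20, 7.14 and 7.09 to 6.66, 6.64 and 6.55 and UBE2H, a ubiquitin-conjugating enzyme, from 7.67, 7.57 and 7.68 to 7.14, 7.26 and 7.15. Both fell with the trended prior, from a 4 h level within the spread of vehicle. A dimmer RIOK3 probe set differed by 0.31 the other way without overlap and did not pass, and the dimmest differed by -0.03. NEDD1, of the centrosome, had no such difference on another, brighter one of its second probe sets, which was at 9.13, 9.36 and 9.26 and then at 9.22, 9.23 and 9.22. The 10 named as higher, KAZALD1, ERC1, DCAF1, CASTOR3P, METTL3, ZNHIT2, LOC374443, IGFBP3, ESPL1 and TIAM2, differed by 0.36 to 0.53, and 0 passed in any fit described here.

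Some RNA controls had different means at 4 h and 6 h. The log2 signal of the ACTB 3' probe set minus that of the 5' probe set, which grows when RNA or its amplified copies are shorter, was 2.58, 2.70 and 2.76 at 4 h and 2.71, 2.97 and 3.38 at 6 h. Replicate 3 at 6 h stood highest, and the difference of 0.34 had an exact two-sided permutation p of 0.2, where 0.1 is the smallest that 3 against 3 arrays can give. The 18S ribosomal RNA probe set was at 9.06, 8.82 and 9.05 and then 8.86, 8.55 and 8.51 (-0.33, exact permutation p = 0.2), while 28S and GAPDH 3' minus 5' differed by -0.05 and -0.01. The part of these controls in the results was not tested as such. Without replicate 3 at 6 h, the differences of ATF3, EGR1, KLF6 and MAFF were -0.82, -0.65, -0.61 and -0.66, and the second probe sets gave 793 lower and 273 higher. That fit kept replicate 2 at 6 h, with 2.97 for ACTB 3' minus 5' and 8.55 for 18S, so it is no test of these controls.

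**Figure D5:**
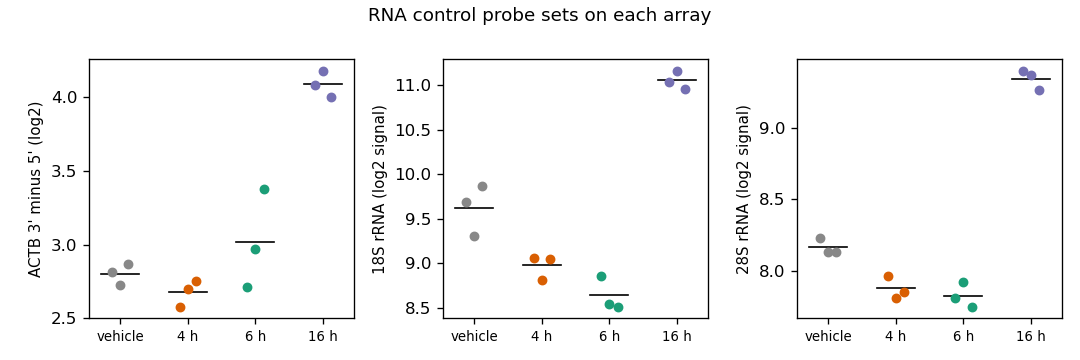
RNA control probe sets on each of the 12 arrays (points; bars are group means): the ACTB 3' minus 5' difference (log2), 18S and 28S ribosomal RNA (log2 signal). The y axes do not start at 0. Replicate 3 at 6 h lies at 3.38 in the left panel, above the other arrays of the 4 h and 6 h groups. The 16 h arrays lie higher there, at 4.00 to 4.18.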

How the data were processed

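Total RNA of 22Rv1 cells was hybridised to Affymetrix U133 Plus 2.0 arrays after 3' in vitro transcription labelling, per the labels' protocols. The authors deposited log2 values for each probe set. The submitters' processing notes list GCRMA, with no version, a method that models background from probe sequence and brings arrays to 1 distribution, which hides a shift common to most genes. No scanner files were used here. Array groups came from the titles, and the deposited values were used as they stand.

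Gene names came from the platform annotation: 41091 probe sets had 1 symbol, 1801 had several, 11721 had none listed and 62 were controls. Symbols were updated through a RefSeq gene table (41037 found, 54 kept). Some listed markers are not analysed here. Probe sets ending in _s_at or _x_at can bind several related transcripts. A gene was represented by its brightest probe set, the one with the highest mean over the 6 arrays, and its others are second probe sets.

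The planned fit was limma (version 3.58.1, R version 4.3.3; linear model and empirical Bayes, two-sided, 4 residual and 3.34 prior degrees of freedom) on the 6 arrays, with Benjamini-Hochberg adjustment over 22725 probe sets and a threshold of 0.05. Tested on simulated data for this comparison, with 200 of 22725 probe sets changed, it recovered 31.3% at a log2 change of 0.5 and 86.3% at 1. Other settings were all 12 arrays in the fit, a trended and robust prior, array weights, other filters (none, or the 75th percentile at 4.47) and scalings, other probe set choices, a replicate block and leaving out each array. Single control values were compared by exact permutation over the arrays. Lists are described by counts and medians, with no set test. Arrays not overlapping means that all 3 arrays of a time lie beyond all 3 of the other.

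Genes were named by rule: the 15 on each side, and 10 on each side among second probe sets, by unadjusted p with arrays not overlapping because none was called, and 14 genes named in every case. List members given as examples were chosen after their values were seen. The comparison, lists and rules were chosen with earlier results of these data known. Promoters were the 250 bases before the start in a RefSeq table.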

Additional observations from a re-analysis of the deposited data

How the results depend on the processing

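The planned fit called 0 probe sets, 0 genes and 0 list members, and the same 0 came without a filter on low values, with quantile normalisation, median centring, array weights, probe sets averaged by gene, probe sets outside _s_at and _x_at, or without any single array (0 to 0 in all leave-one-out fits; lowest adjusted p 0.293 to 0.593). Fitting all 12 arrays gave 10 probe sets, 6 genes, 4 list members, and 5 genes closer to vehicle and 1 farther. A filter at the 75th percentile gave 4 probe sets and 3 genes, all 3 of them list members. The trended and robust prior gave 90 probe sets, 67 genes, 22 list members, and 50 genes closer and 17 farther. Alternatives added after the values were seen were 1 probe set per gene, which gave 0 genes with the 6 arrays and 12 with all 12 arrays, and leaving out each array in the fits that made calls, which gave 0 to 4 genes with the 12-array fit and, with the trended prior, 38, 12 and 11 without replicates 1, 2 and 3 at 4 h and 70, 19 and 63 without those at 6 h. The cause of these differences was not tested, beyond fewer probe sets being adjusted over with the stricter filter. Of 829 values of the 58 named differences under the alternatives, 828 kept their direction. Much of that count was fixed beforehand. Most of the 58 were named because their arrays did not overlap, so leaving out a single array could not turn them. The 12-array fit, the trended prior and the filters leave each difference as it is. MAT2A turned, to -0.0297 when its probe sets were averaged (adjusted p = 0.898).

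Replicate numbers are shared by the 4 h and 6 h arrays. Deviations of same-numbered arrays correlated at 0.21, 0.02 and 0.10, and those of different-numbered arrays at -0.19 to 0.11. These values cannot tell whether the numbers pair the arrays, and the labels do not say. With the replicate block limma called 0 probe sets (lowest adjusted p 0.292). Signals near the unspiked controls, such as those of PTGS1, AASS and LINC01093, limit what a difference there can show.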
